A study of Bos taurus with 56 samples.

Results

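The comparison described here was between the ampulla on the side of the corpus luteum (CL) and the ampulla of the opposite oviduct, pooled over heifers, non-lactating cows and lactating cows. Its members were the 28 ampulla libraries of the 56 oviduct libraries in the series, 14 ipsilateral and 14 contralateral to the CL, chosen by the region and side in the column names of the deposited count table. The animals were 5 nulliparous Holstein heifers, 5 primiparous cows dried off at calving (non-lactating) and 4 primiparous cows milked after calving (lactating). All animals had been synchronised with an intravaginal progesterone device, a prostaglandin F2 alpha analogue and buserelin, were not inseminated, and were slaughtered on Day 3 after estrus, the cows at about 60 days post-partum. Each animal gave a library from both sides, so that both sides came from the same 14 animals. The cells were epithelium scraped from the opened ampulla, not a sorted cell type, and the RNA was sequenced as stranded total RNA.

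The ampulla is the wide segment of the oviduct next to the ovary where fertilisation takes place. Its lining is made of ciliated cells, which move the oocyte and the fluid, and of secretory cells, which release oviductal glycoprotein and other components of that fluid. After ovulation the ruptured follicle becomes the CL, which secretes progesterone, and the ipsilateral oviduct lies next to it and receives the oocyte and the follicular fluid. In the contralateral oviduct neither the oocyte nor a CL is at hand. The question was whether the transcriptome of the ampulla differs between these sides when the sides are compared over all animals, since each metabolic group alone holds only 4 or 5 animals per side.

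The pairing of the libraries needed care. The column names carry an animal number, and animals are named here by letter within their group in the order of these numbers. In the ipsilateral ampulla, 1 column of the non-lactating group carried the number of lactating cow B, and 1 column of the lactating group carried that of non-lactating cow C. Each library was compared with the other libraries of every animal, over 200 genes that differ between animals, and 52 of the 56 libraries resembled their own number best. The remaining 4 were all of the ipsilateral ampulla. The library numbered as lactating cow B resembled non-lactating cow C (r = 0.77, against -0.05 for its own number), and the library numbered as non-lactating cow C resembled lactating cow B (0.83, against -0.06). For these libraries the group in the column name therefore matched the animal they resembled, and the number did not. The libraries numbered as heifer B and non-lactating cow B also resembled each other's animal (0.85 and 0.84, against 0.23 and 0.16), and for these the group differed too. In the main fit each library kept the group of its column name and no term for the animal was used. Paired values were given with all 4 numbers put right, a pairing chosen after the data were seen. With the numbers as written the sides of an animal correlated at a median r of 0.22 over 10616 genes, above 0.1 in 9 of 14 animals. With the numbers put right the median was 0.33 and 12 of 14 were above 0.1. The exchange was itself chosen by expression in these libraries, so the higher correlation is no independent check of it.

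Counts on genes ranged from 3771989 to 5554403 in the ipsilateral libraries (median 4969167) and from 3141770 to 6736441 in the contralateral libraries (median 5037657.5). Alignments to several places made up 39.7 to 56.8% of all alignments (median 47.1%) ipsilaterally and 43.9 to 61.3% (median 53.4%) contralaterally, and the part of this difference in the results was not tested. Of the unique alignments, 74.9 to 80.9% (median 79.1%) ipsilaterally and 73.1 to 79.6% (median 78.6%) contralaterally fell outside genes. The counts on genes thus cover the smaller part of the unique alignments. The contralateral library of heifer E stood apart, with 12.9% of its counts on its 10 highest genes, where the other sides and animals reached at most 8.43%. Levels are given as CPM, counts scaled to a common library size after TMM normalisation, and a log2 fold change is ipsilateral minus contralateral.

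Over the 14 animals, 787 of 14553 genes differed between the sides at an adjusted p under 0.05 (quasi-likelihood test of edgeR, Benjamini-Hochberg adjusted, as for every adjusted p given here). Of these, 394 were higher ipsilaterally (2.71% of the genes tested) and 393 were lower (2.7%). The differences were small. The median log2 fold change was 0.48 among the genes that rose and -0.43 among those that fell, and only 53 genes rose and 26 fell by more than 1 log2 unit. Smallest of all p-values was that of GNG11, which encodes a gamma subunit of heterotrimeric G proteins, with an adjusted p of 1.06e-06. In 2934 genes the unadjusted p was under 0.05. With the animal as a block and the 4 numbers put right, 1595 genes were called, 834 higher (5.73%) and 761 lower (5.23%). All 787 genes had the same direction in that fit and 781 were called in it again. Among the 787 genes, 699 differed in the same direction in at least 12 of the 14 animals, and 1954 of all 14553 genes tested did so. The 787 were called in these same libraries, so their agreement in direction is a description.

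**Figure D1:**
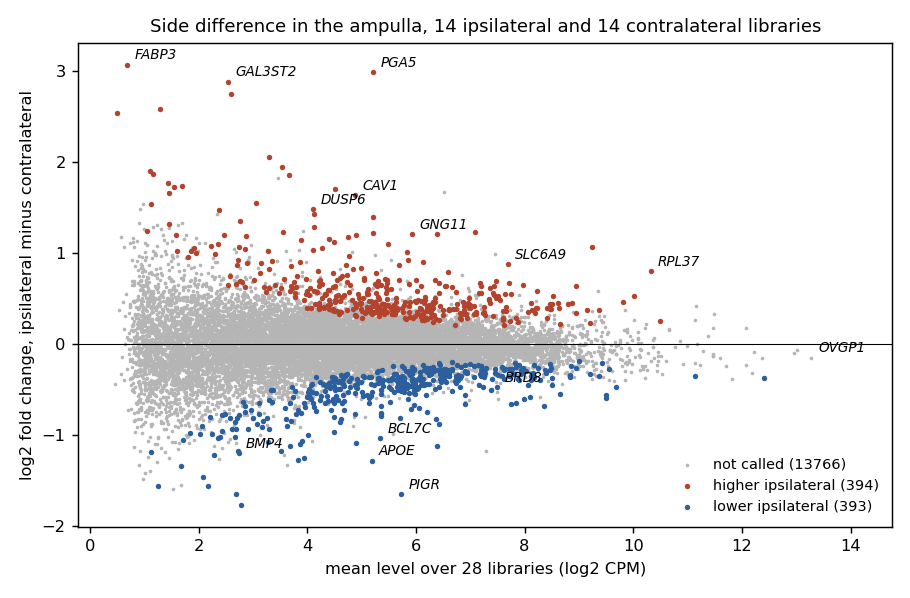
Mean level of each of the 14553 genes tested (log2 CPM, x axis) against its log2 fold change between the ipsilateral and contralateral ampulla (y axis). Red points are the 394 genes called higher and blue points the 393 called lower on the ipsilateral side, most of them within 1 log2 unit of 0, with the largest rises among genes of low level such as FABP3.

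The count varied with the set of libraries used. In the 10 animals whose numbers raised no doubt, 95 genes were called without the block and 473 with it. This set has fewer animals and also lacks the doubtful ones, and the part of each in the count was not tested. Of the 786 genes called in all animals that were also tested in these 10, all 786 kept their direction, 94 were called without the block and 371 with it, and the median ratio of the 2 log2 fold changes was 0.99. The libraries of these 10 animals are part of those in which the genes were called. The kept direction and the ratio are therefore no independent check. Without the ipsilateral library numbered as non-lactating cow D, 517 genes were called, the fewest with 1 library left out. Without the contralateral library of heifer E the count was 1120, the most.

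Groups overlapped for nearly every gene. A single gene of the 14553 had no overlap between its 14 ipsilateral and 14 contralateral values, TSPAN13, named here after its values were seen, which encodes a tetraspanin of the cell membrane. Its level was 23.0 to 47.9 CPM (median 27.9) ipsilaterally and 11.2 to 21.8 CPM (median 19.4) contralaterally, a log2 fold change of 0.75 ± 0.12 (SE, adjusted p = 0.00045).

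Among the genes of smallest p that rose, GNG11 lay at 47.3 to 112 CPM (median 89.0) ipsilaterally and 23.4 to 57.6 CPM (median 36.2) contralaterally. Its log2 fold change was 1.20 ± 0.12, 12 of the 14 ipsilateral libraries lay above the highest contralateral one, and all 14 animals had more on the ipsilateral side. RPL37, a protein of the large ribosomal subunit, was at 1116 to 2505 CPM (median 1573.5) against 628 to 1534 CPM (median 851), with a log2 fold change of 0.80 ± 0.11 and an adjusted p of 0.00011. Ribosomal protein genes have near-identical processed copies in mammalian genomes, so that the assignment of reads to RPL37 is uncertain. FAM3D, a small secreted protein related to cytokines, was at 38.8 to 119 CPM (median 73.3) against 26.2 to 68.4 CPM (median 34.1), a log2 fold change of 0.93 ± 0.13. NIPAL2, a membrane protein of a family that carries magnesium, was at 52.3 to 117 CPM (median 81.6) against 37.6 to 73.9 CPM (median 52.3), a log2 fold change of 0.64 ± 0.09. For RPL37, FAM3D and NIPAL2 too, each of the 14 animals had more on the ipsilateral side, while 9 or 10 ipsilateral libraries exceeded the contralateral range.

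The genes with the largest rises were mostly of low level. FABP3, which binds fatty acids in the cytoplasm, had the largest log2 fold change, 3.07 ± 0.69 (adjusted p = 0.0088), at 0 to 7.33 CPM (median 1.83) ipsilaterally. On the contralateral side its highest value was 2.44 CPM and it was at 0 in 10 of 14 libraries, so that this estimate rests on few reads. SLC13A5, the citrate transporter of the cell membrane, was likewise at 0 in 10 contralateral libraries and reached 4.95 CPM ipsilaterally, with a log2 fold change of 2.54 ± 0.73. Of higher level was PGA5, a pepsinogen, at 0.79 to 262 CPM (median 53.9) against 0.17 to 28.8 CPM (median 9.48), with a log2 fold change of 2.98 ± 0.60 and an adjusted p of 0.0045. The pepsinogen genes form a family of close copies in cattle, between which reads may be divided. GAL3ST2, a sulfotransferase that acts on galactose residues of mucin-type glycans, was at 0.89 to 19.0 CPM (median 11.4) ipsilaterally and at 0 to 5.57 CPM (median 0.76) contralaterally, where 4 libraries were at 0. Its log2 fold change was 2.88 ± 0.54 (adjusted p = 0.0023), and 13 of 14 animals had more on the ipsilateral side. SLC43A3, a transporter of nucleobases, was at 1.58 to 24.6 CPM (median 7.15) against 0 to 6.18 CPM (median 1.19), with a log2 fold change of 2.74 ± 0.50.

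PLA2G4D and PLA2G4F, both cytosolic phospholipases of the group that frees fatty acids from membrane lipids, had log2 fold changes of 1.71 ± 0.38 and 1.03 ± 0.25. The level of PLA2G4D was 3.20 to 72.9 CPM (median 26.2) ipsilaterally and 0.20 to 26.8 CPM (median 8.44) contralaterally, higher ipsilaterally in each of the 14 animals. CAV1, the main protein of caveolae, was at 14.5 to 97.4 CPM (median 43.0) against 2.01 to 30.0 CPM (median 14.4), a log2 fold change of 1.64 ± 0.29 (adjusted p = 0.0012). All 14 animals had more CAV1 on the ipsilateral side, and 8 ipsilateral libraries lay above the contralateral range. TDGF1, a co-receptor of Nodal, had a log2 fold change of 1.90 ± 0.44 at medians of 2.36 and 0.68 CPM. RET, the receptor of the glial cell line-derived neurotrophic factor family, ADCYAP1R1, the receptor of PACAP, DRP2, a relative of dystrophin, and TPBGL had log2 fold changes of 1.66 to 1.77. C26H10orf90 completed the rises named by size, with 1.54 ± 0.44. None of these 5 genes exceeded a median of 4.32 CPM on either side.

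**Figure D2:**
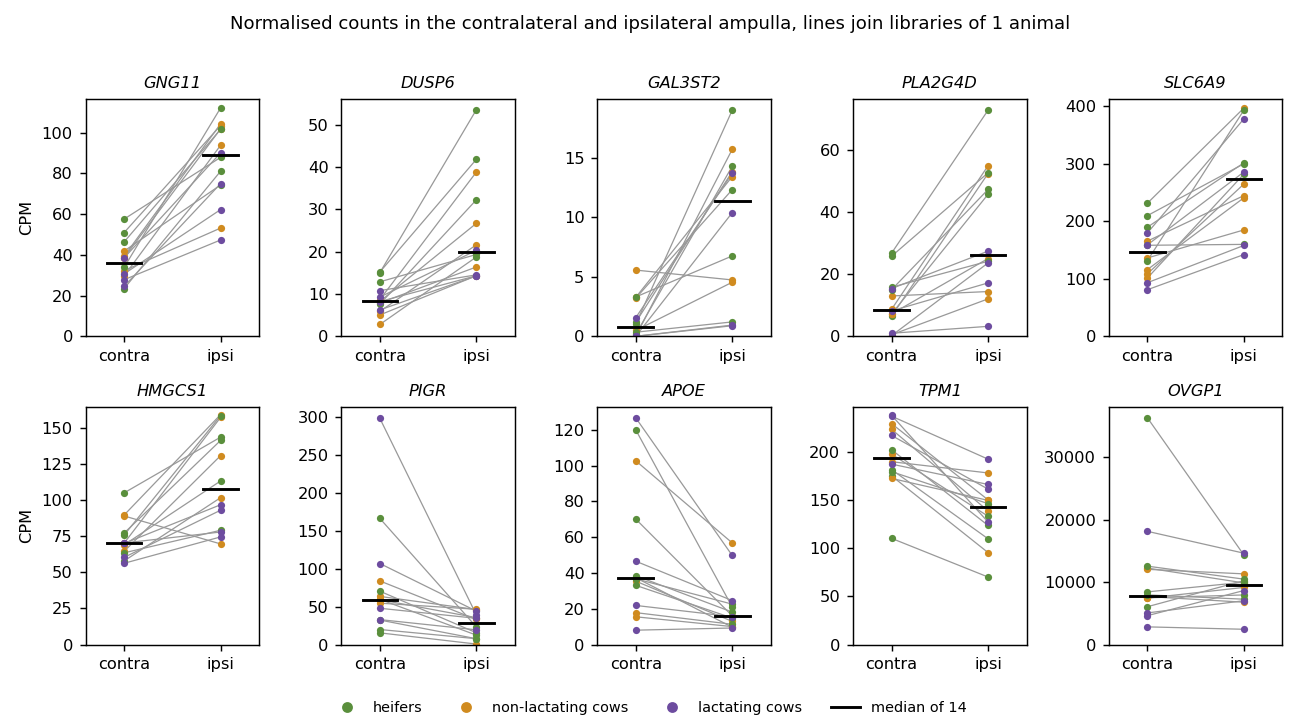
CPM in the contralateral and ipsilateral ampulla for 10 genes, with a point for each of the 28 libraries coloured by the metabolic group of its column, a line joining the libraries of 1 animal (the 4 numbers put right) and a black bar at the median of 14. All 14 lines rise for GNG11, DUSP6, PLA2G4D and SLC6A9, 13 rise for HMGCS1, all 14 fall for PIGR and TPM1, and OVGP1 shows both.

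On the side of the falls, PIGR had the largest log2 fold change of the genes named, -1.65 ± 0.38 (adjusted p = 0.0098). It encodes the receptor that carries polymeric immunoglobulins across an epithelium. Its level was 0.59 to 46.4 CPM (median 28.02) ipsilaterally and 15.3 to 298 CPM (median 59.2) contralaterally, with less on the ipsilateral side in all 14 animals although 10 ipsilateral libraries lay within the contralateral range. APOE, the apolipoprotein that binds lipoprotein receptors, was at 9.23 to 56.8 CPM (median 15.8) against 8.02 to 127 CPM (median 37.1), a log2 fold change of -1.28 ± 0.35 (adjusted p = 0.031), lower in 13 of 14 animals. BMP4, a ligand of the bone morphogenetic protein family, had a log2 fold change of -1.20 ± 0.33 at medians of 2.80 and 7.85 CPM. FIGF, the gene of vascular endothelial growth factor D, fell by 1.03 on the log2 scale at medians of 2.94 and 6.49 CPM. Also among the largest falls were AKAP12, an anchor of protein kinases (-1.18 ± 0.29), GSG2, the kinase haspin (-1.19 ± 0.31), CALM, a calmodulin (-1.07 ± 0.23), and TMEM158, a membrane protein induced by RAS (-1.08 ± 0.29). Calmodulin is encoded by several genes with nearly the same protein, so that CALM may share reads with its copies. C28H10orf10, KIAA1755, PABPC1L2A, CCDC85A and PALM3 had log2 fold changes of -1.03 to -1.56, at ipsilateral medians of 1.42 to 3.25 CPM. MIR2332 had -1.65 ± 0.27 at medians of 2.90 and 6.98 CPM, counts of long RNA on the annotated locus of a microRNA, which do not measure the mature form.

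The falls of smallest p were less steep. BRD8, a bromodomain protein of a histone acetyltransferase complex, was at 110 to 186 CPM (median 150) ipsilaterally and 175 to 257 CPM (median 210) contralaterally, a log2 fold change of -0.47 ± 0.07 (adjusted p = 0.00033). For this gene 13 of 14 ipsilateral libraries lay below the lowest contralateral one. EPB41L4B, which links the membrane to the cytoskeleton, had -0.60 ± 0.09, and 12 ipsilateral libraries lay below the contralateral range. BCL7C, a subunit of the SWI/SNF chromatin remodelling complex, was at 18.7 to 42.3 CPM (median 23.2) against 33.4 to 121 CPM (median 48.3), a log2 fold change of -1.04 ± 0.18. TCEA2, a transcription elongation factor, had -0.74 ± 0.13. All of BRD8, EPB41L4B, BCL7C and TCEA2 were lower on the ipsilateral side in each of the 14 animals.

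Cholesterol biosynthesis and uptake was the gene group with the most calls. Cells make cholesterol from acetyl-CoA by the mevalonate pathway and the sterol steps that follow, and also take it up from lipoproteins. Of 22 tested genes, 8 rose and none fell, beside 2.71% of all genes tested called higher. All 22 had a positive log2 fold change, and the median was 0.34 beside -0.0078 over all genes tested. HMGCS1, which makes HMG-CoA at the start of the pathway, was at 69.6 to 159 CPM (median 107) ipsilaterally and 56.2 to 105 CPM (median 70.0) contralaterally, with a log2 fold change of 0.63 ± 0.12 (adjusted p = 0.0020). Its ranges overlapped, 7 ipsilateral libraries lay above the contralateral range, and 13 of 14 animals had more on the ipsilateral side. Of the sterol steps, SQLE, which opens them with squalene epoxidation, had 0.64 ± 0.15, CYP51A1, a demethylase of lanosterol, 0.67 ± 0.14, MSMO1, a sterol oxidase, 0.50 ± 0.13, and SC5D, a desaturase, 0.39 ± 0.11.

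The remaining 14 genes of the group were not called. Among them were IDI1, NSDHL and INSIG1, with log2 fold changes of 0.43, 0.34 and 0.53, and TM7SF2, DHCR7 and EBP, with 0.042, 0.083 and 0.11. With the block and the numbers put right, 12 of the 22 were called higher, beside 5.73% of all genes, and in the 10 animals of undoubted number none was called without the block and 4 with it, at a median log2 fold change of 0.32. The study had reported sterol and cholesterol terms between the sides of the ampulla in non-lactating cows and heifers from these libraries, so the count for this group and for cholesterol export is not independent evidence of a direction. With libraries grouped by column name, the medians over the group were 0.34, 0.46 and 0.22 within heifers, non-lactating cows and lactating cows.

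**Figure D3:**
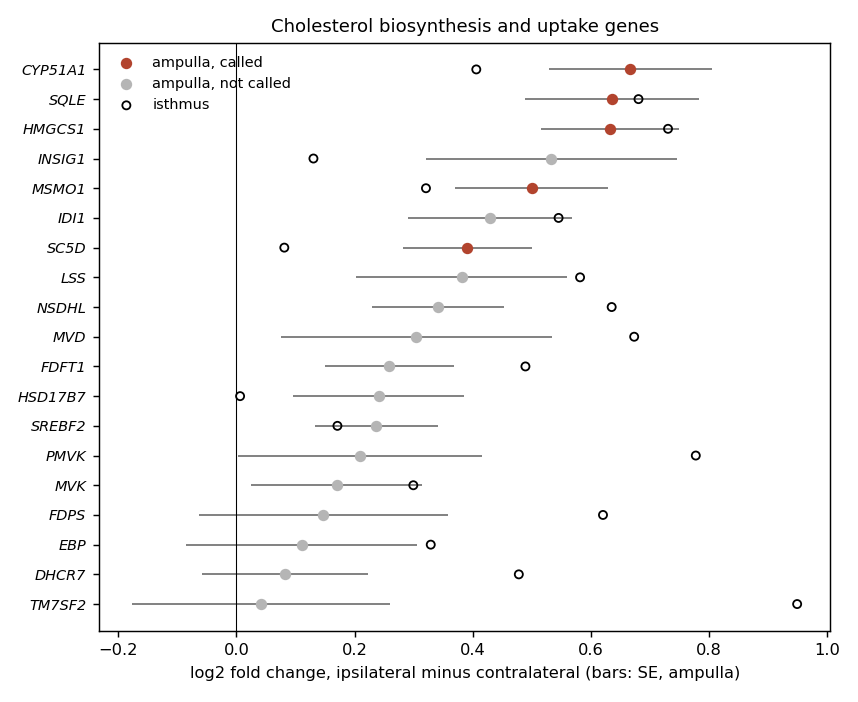
Log2 fold change between the ipsilateral and contralateral ampulla for 19 of the tested genes of cholesterol biosynthesis and uptake, with bars of 1 SE (n = 14 libraries a side), red where called, and open circles for the same genes in the isthmus. All 19 ampulla values lie above 0, from 0.042 for TM7SF2 to 0.67 for CYP51A1.

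Genes of cholesterol export and lipoprotein handling moved both ways. For this and the groups below, 2.71% of all genes tested were called higher and 2.7% lower in the main fit. All gene lists were chosen with earlier results of these data known, so a count above these shares is a description. ABCA1 and APOE fell and ABCG1 rose, of 15 tested, and the group's median log2 fold change was -0.13. ABCA1, which passes cholesterol to lipid-poor apolipoproteins, was at 29.0 to 70.9 CPM (median 40.2) against 32.6 to 124 CPM (median 71.3), a log2 fold change of -0.72 ± 0.16 (adjusted p = 0.0068). All 14 ipsilateral libraries lay below the contralateral median. ABCG1, which passes cholesterol to mature particles, was at 249 to 1120 CPM (median 509) against 191 to 665 CPM (median 381), a log2 fold change of 0.63 ± 0.16 (adjusted p = 0.021), higher in each of the 14 animals. Of the genes of fatty acid metabolism and binding, 2 rose and 1 fell of 20 tested, at a median of 0.17. Beside FABP3 these were ELOVL6, an elongase of fatty acids (0.65 ± 0.14), and ACADVL, a dehydrogenase of very long chains (-0.47 ± 0.13).

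In MAPK signalling, DUSP6 and DUSP5, which encode phosphatases that switch off ERK, rose. DUSP6 was at 14.3 to 53.6 CPM (median 19.8) ipsilaterally and 2.80 to 15.2 CPM (median 8.24) contralaterally, a log2 fold change of 1.48 ± 0.20 (adjusted p = 0.00012). Its ranges overlapped, but 10 of the 14 ipsilateral libraries lay above the contralateral range and all 14 animals had more ipsilaterally. DUSP5 was at medians of 4.31 and 2.35 CPM, with 0.99 ± 0.23 (adjusted p = 0.011). These were the 2 calls among 18 tested genes of MAPK feedback and early response, beside 2.71% of all genes called higher. The median of the group was -0.077. DUSP4, another phosphatase of this kind, had -0.31 (adjusted p = 0.81). Neither the sprouty genes SPRY1, SPRY2 and SPRY4 (0.35, 0.24 and 0.26) nor EGR1 and FOS (-0.53 and -0.39) were called. Upstream, ERBB4, a receptor of neuregulins, was the call among 9 receptors and ligands of the EGF family, with -0.64 ± 0.12 (adjusted p = 0.0029) at medians of 34.5 and 56.9 CPM. TGFA, an EGF receptor ligand, had 0.41 ± 0.14 (adjusted p = 0.089, and 0.0069 with the block).

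Amino acid genes were called in small numbers, beside 2.71% of all genes called higher and 2.7% lower. SLC6A9, the glycine transporter, was at 142 to 397 CPM (median 273) ipsilaterally and 81.0 to 231 CPM (median 147) contralaterally, a log2 fold change of 0.88 ± 0.16 (adjusted p = 0.0016). SLC38A1, a sodium-coupled transporter of neutral amino acids, had 0.70 ± 0.12 (adjusted p = 0.0010), and 13 of 14 ipsilateral libraries lay above the contralateral range. Its relative SLC38A2 had -0.31 ± 0.09, so that 2 of 14 tested amino acid transporters rose and 1 fell. In arginine and proline metabolism NOS2, the inducible nitric oxide synthase, was at 4.33 to 53.0 CPM (median 21.2) against 3.26 to 20.8 CPM (median 8.03), with 1.28 ± 0.29 (adjusted p = 0.0088). ALDH18A1, which makes the precursor of proline, had 0.44 ± 0.10, and the other 11 of the 13 tested genes were not called. In the breakdown of branched-chain amino acids, ACAA2 (0.52 ± 0.10) and ACADSB (0.46 ± 0.12) rose and ALDH6A1 fell (-0.30 ± 0.07) of 19 tested. The study had picked both of the last 2 pathways from these libraries in non-lactating cows, so their counts are not independent evidence of a direction.

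The cytoskeleton, junctions and secretory route gave the larger counts after cholesterol, beside 2.71% of all genes called higher and 2.7% lower. These lists too were chosen with earlier results of these data known, so their counts are not independent evidence. Of 19 tested genes of actin and caveolae 4 rose and 1 fell, at a median of 0.21. Beside CAV1, FLNA, which crosslinks actin filaments, was at 211 to 483 CPM (median 281) against 129 to 271 CPM (median 189), with 0.65 ± 0.14 (adjusted p = 0.0055). ACTB and ACTG1, the cytoplasmic actins, whose near-identical coding sequences may share reads, had 0.44 ± 0.13 and 0.46 ± 0.13. TPM1, a tropomyosin, was at 70.2 to 193 CPM (median 143) against 110 to 238 CPM (median 194), with -0.50 ± 0.10 (adjusted p = 0.0045), lower in each of the 14 animals. Of 28 tested genes of the endoplasmic reticulum and secretory route 5 rose, at a median of 0.026. These were the small GTPases SAR1A, ARF1 and RAB1A, which drive the budding and tethering of transport vesicles (0.70 ± 0.11, 0.45 ± 0.09 and 0.28 ± 0.07), the chaperone partner DNAJC3 (0.35 ± 0.08) and the transcription factor CREB3L2 (0.43 ± 0.11). SAR1A was at 40.6 to 79.1 CPM (median 52.5) ipsilaterally and 21.1 to 52.6 CPM (median 30.3) contralaterally.

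Junction genes moved in both directions, 2 up and 2 down of 14 tested, beside 2.71% of all genes higher and 2.7% lower. GJB1, the gap junction protein connexin 32, was at 13.9 to 46.8 CPM (median 22.7) against 6.32 to 31.3 CPM (median 11.2), with 1.05 ± 0.20 (adjusted p = 0.0031). MARVELD2, a protein of the corners between 3 cells, had 0.28 ± 0.08. CLDN10, a claudin that forms ion-selective pores, was at medians of 30.1 and 48.1 CPM with -0.68 ± 0.15, and CGN, the tight junction protein cingulin, at 234 and 303 CPM with -0.39 ± 0.09. CLDN3 had -0.51 ± 0.16 (adjusted p = 0.054, and 0.0038 with the block).

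In WNT, TGF-beta, Notch and clock genes 1 or 2 members of each group were called, beside 2.71% of all genes higher and 2.7% lower. WIF1, a secreted inhibitor of WNT proteins, rose (0.87 ± 0.20, adjusted p = 0.011, medians of 7.52 and 4.94 CPM), the only call of 17 tested WNT genes. The WNT receptor FZD6 had 0.36 ± 0.12 (adjusted p = 0.073, and 0.0086 with the block). Of 22 tested genes of TGF-beta, activin and BMP signalling, BMP4 and TGFBR3, a co-receptor of TGF-beta, fell, the latter by 0.39 on the log2 scale (adjusted p = 0.0035). Of 12 tested Notch genes the ligand JAG1 and the target HES1 fell, by 0.37 and 0.41. In the circadian clock DBP and NR1D1, transcription factors of its output and feedback, had -0.76 ± 0.13 (adjusted p = 0.0010) and -0.91 ± 0.22, and the other 15 of the 17 tested genes were not called. DBP was at 18.9 to 42.3 CPM (median 30.3) against 33.8 to 86.1 CPM (median 48.9), lower in each of the 14 animals, from which both sides were collected at the same slaughter.

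Hormone receptors did not pass the test, which called 2.71% of all genes higher and 2.7% lower. PGR, the nuclear progesterone receptor, was at 15.1 to 50.6 CPM (median 28) ipsilaterally and 17.9 to 58.6 CPM (median 31.7) contralaterally, a log2 fold change of -0.10 ± 0.17 (adjusted p = 0.80). ESR1, the estrogen receptor alpha, was at 284 to 431 CPM (median 356) against 249 to 483 CPM (median 339), 0.07 ± 0.09 (adjusted p = 0.75). None of the 11 tested receptors and partners was called, with 0 also in the paired fit, and the lowest p among them was that of the coactivator NCOA1 (-0.19 ± 0.08, adjusted p = 0.17). Of 14 tested targets of the progestin and glucocorticoid receptors only BCL6, a transcriptional repressor, was called, at 31.6 to 46.6 CPM (median 41.8) against 43.9 to 80.2 CPM (median 51.6), with -0.40 ± 0.08 (adjusted p = 0.0061). With the block 3 of them were higher as well, beside 5.73% of all genes. These were TIPARP, a target of progesterone and of the aryl hydrocarbon receptor (0.50 ± 0.16, adjusted p = 0.069, and 0.00081 with the block), SGK1, a kinase that regulates sodium transport (0.69 ± 0.25, adjusted p = 0.099 and 0.0024), and MT2A, a metallothionein (0.74 ± 0.24, adjusted p = 0.073 and 0.0043). None of 10 tested targets of the estrogen receptor was called, OVGP1 among them.

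The remaining groups held at most 2 calls, beside 2.71% of all genes called higher and 2.7% lower. PLA2G4F was the call among 12 genes of prostaglandin synthesis and reception, where PTGES3, a prostaglandin E synthase, had 0.24 ± 0.09 (adjusted p = 0.13, and 0.020 with the block). CA9 (-0.64 ± 0.20) and NDRG1 (-0.56 ± 0.16), both induced by low oxygen, fell among 21 genes of glycolysis and the hypoxia response, and no glycolytic enzyme was called in the main fit. With the block 5 members of this group were higher, beside 5.73% of all genes. These were the enzymes HK2, GPI, ENO1 and PKM (adjusted p of 0.026, 0.034, 0.032 and 0.035) and the oxygen sensor EGLN3 (0.012). GCLM, a subunit of the enzyme that starts glutathione synthesis, had 0.47 ± 0.12, the call among 23 antioxidant genes. PIGR was the call among 9 genes of mucosal defence, while the mucin MUC1 had -0.34 ± 0.15 (adjusted p = 0.21, and 0.027 with the block). No gene was called among 16 of ion and water transport, 18 stimulated by interferon, 8 of MHC class II presentation and 15 of proliferation. Of 16 tested complement genes none was called either, with 14 negative and a median log2 fold change of -0.38. In the paired fit 5 of these complement genes were lower, beside 5.23% of all genes. Among the 5 was the protease CFB (-0.83 with the block, adjusted p = 0.0052, and 0.19 without it).

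With the block, 787 calls over all genes became 1595 (5.73% of genes higher and 5.23% lower), so that a rise in calls was general. It also raised the counts of other groups by more than 1.5 times. With it, 4 genes rose and 2 fell in the breakdown of branched-chain amino acids, 5 rose and 1 fell in fatty acid metabolism, and 2 rose and 1 fell among antioxidant genes. In the EGF family 1 rose and 2 fell, among amino acid transporters 3 rose and 2 fell, and in the clock 2 rose and 3 fell. In junctions 2 rose and 5 fell, in mucosal defence 1 rose and 3 fell, and among prostaglandin and WNT genes 2 rose in each. Of genes with no call in the main fit, 2 of MHC class II and 1 stimulated by interferon fell and 1 of ion transport rose.

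**Figure D4:**
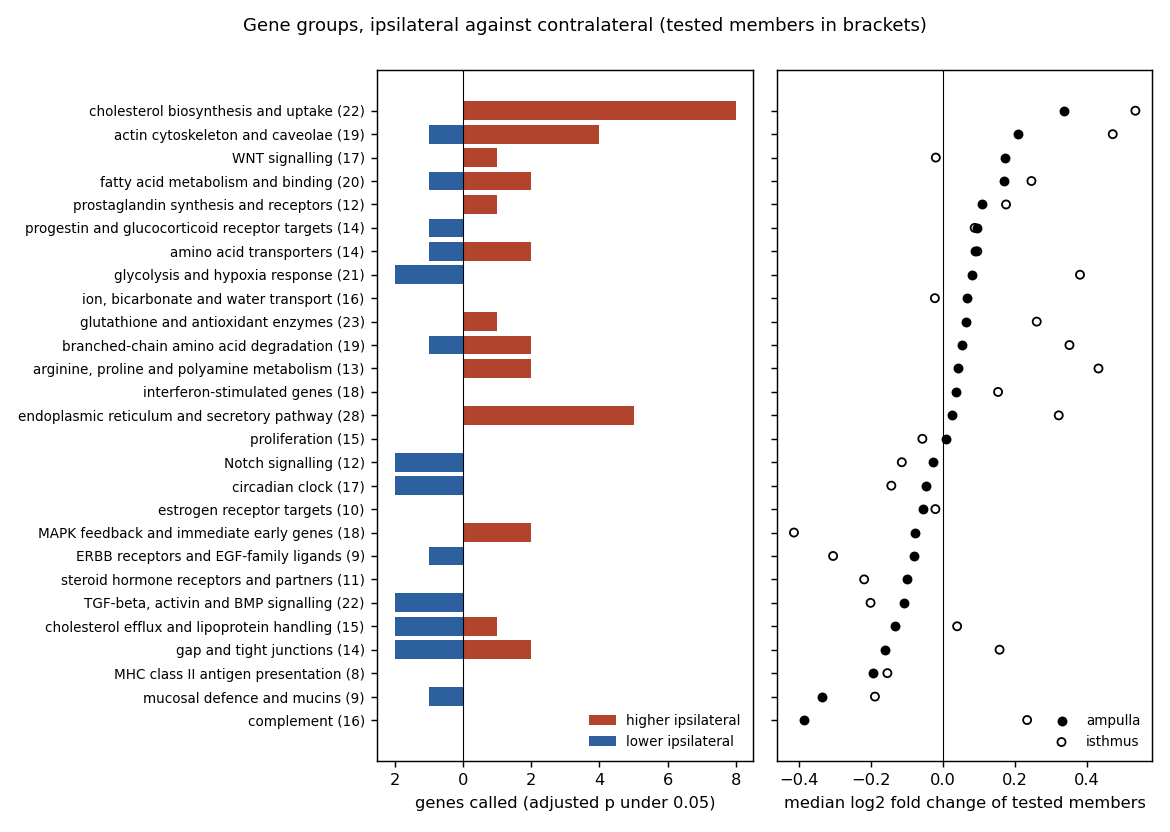
For each of the 27 gene groups, ordered by median: the number of genes called higher (red) and lower (blue) on the ipsilateral side of the ampulla, and the median log2 fold change of all tested members in the ampulla (filled) and the isthmus (open). Cholesterol biosynthesis and uptake has the most calls, 8, and the highest median, 0.34, and complement the lowest, -0.38.

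The labelled tissue was checked with markers. FOXJ1, the master regulator of motile cilia, was at 268 to 433 CPM (median 318) ipsilaterally and 281 to 441 CPM (median 316) contralaterally (0.04 ± 0.09, adjusted p = 0.86). OVGP1, the oviductal glycoprotein of secretory cells, was at 2440 to 14622 CPM (median 9503) against 2825 to 36300.4 CPM (median 7811), with -0.15 ± 0.26 (adjusted p = 0.82). None of 14 ciliated, 8 secretory or 7 epithelial markers tested was called, where 2.71% of all genes were called higher and 2.7% lower. At these shares the absence of calls does not show an equal make-up of cells. With the block, which called 5.73% of all genes higher and 5.23% lower, 4 of the markers were called. These were TPPP3 (lower) and SPAG6 (higher) of the ciliated, KRT7 (higher) of the secretory and CLDN3 (lower) of the epithelial markers. Their adjusted p-values were 0.041, 0.044, 0.048 and 0.0038. The summed level of the ciliated markers was 8786 to 13683 CPM (median 10837) against 9462 to 14599 CPM (median 11382).

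Markers of other cell types were low and largely not called. All 8 macrophage markers tested were lower ipsilaterally, at a median of -0.43, with none called in the main fit. Their summed level was 22.6 to 201 CPM (median 37.5) against 22.8 to 323 CPM (median 45.0). With the block, which called 5.23% of all genes lower, 1 of the 8 was called, C1QB (-0.67, adjusted p = 0.020). Smooth muscle markers summed to 77.3 to 123 CPM (median 104) against 102 to 157 CPM (median 122), and SYNM, an intermediate filament protein that made up most of this sum, was called (-0.34 ± 0.08, adjusted p = 0.017). Endothelial markers summed to 84.0 to 361 CPM (median 135) against 127 to 389 CPM (median 203), mostly KDR, a receptor of vascular endothelial growth factor (-0.53 ± 0.21, adjusted p = 0.13, and 0.0067 with the block). The endothelial marker CLDN5 was at 0 in all 28 libraries. The fibroblast sum was 28 to 69.7 CPM (median 36.4) against 19.3 to 194 CPM (median 34.1), that of lymphocytes 3.67 to 53.8 CPM (median 13.2) against 6.90 to 86.2 CPM (median 14.8), and that of B and plasma cells 8.44 to 127 CPM (median 14.1) against 5.73 to 193 CPM (median 12.8). Of the red blood cell and platelet markers HBA, HBB, SLC4A1, PF4 and PPBP were at 0 throughout. The markers of cumulus, granulosa and luteal cells summed to 17.2 to 38.1 CPM (median 29.3) against 7.83 to 38.1 CPM (median 26.0), mostly from LHCGR, the luteinising hormone receptor, with FSHR at 0 throughout. In tissue scrapings a change in the number of cells of a type and a change of RNA per cell cannot be told apart, and the part of these markers in the results was not tested.

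Metabolic groups were then taken singly, each with its own fit, by the group in the column name. The heifer fit thus held the ipsilateral library that resembled non-lactating cow B. The non-lactating fit held the ipsilateral library that resembled heifer B. No fit within a group was run with these libraries exchanged. In heifers the smallest adjusted p of 13626 genes was 0.31 and 1253 genes had an unadjusted p under 0.05. The corresponding values in lactating cows were 0.38 over 13938 genes and 594 genes, so that edgeR called none in either group. In non-lactating cows 13 genes of 13726 were called (0.0947%), all higher on the ipsilateral side, and 12 of them were also called over all animals. The latter included GNG11, DUSP6, FAM3D, SLC6A9, GJB1 and PLA2G4F, with log2 fold changes of 1.33, 1.99, 1.14, 1.09, 1.30 and 1.78 in these cows. TIPARP, with 1.01 ± 0.17 in these cows, was the gene not called over all animals. Among the genes called over all animals, the median log2 fold change of those that rose was 0.47 in heifers, 0.56 in non-lactating cows and 0.44 in lactating cows, and of those that fell -0.47, -0.45 and -0.35. These groups make up the pooled fit, so the common direction is a description. No gene showed a side difference that itself differed between the metabolic groups (0 of 14553, smallest adjusted p = 0.9999, 160 genes at an unadjusted p under 0.05, and 0 by DESeq2 with a smallest adjusted p of 0.46). What size of difference this test could detect with 4 or 5 animals a group was not measured.

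Isthmus values were set beside those of the ampulla, from the same 14 animals. In the isthmus 4250 of 14506 genes were called between the sides (29.3%). Of the 787 ampulla genes 779 were tested there, 605 had the same direction, and 365 were called in both regions, 340 of them with the same direction and 25 with opposite directions. These 365 were 46.4% of the ampulla genes and 8.59% of the isthmus genes. The median size of the log2 fold change of the ampulla genes was 0.45 in the ampulla, where they had been chosen, and 0.27 in the isthmus. Across the 779 genes the log2 fold changes of the regions correlated at r = 0.66, and across all 13930 genes tested in both at 0.36. Genes are not independent replicates, and the regions share the animals.

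**Figure D5:**
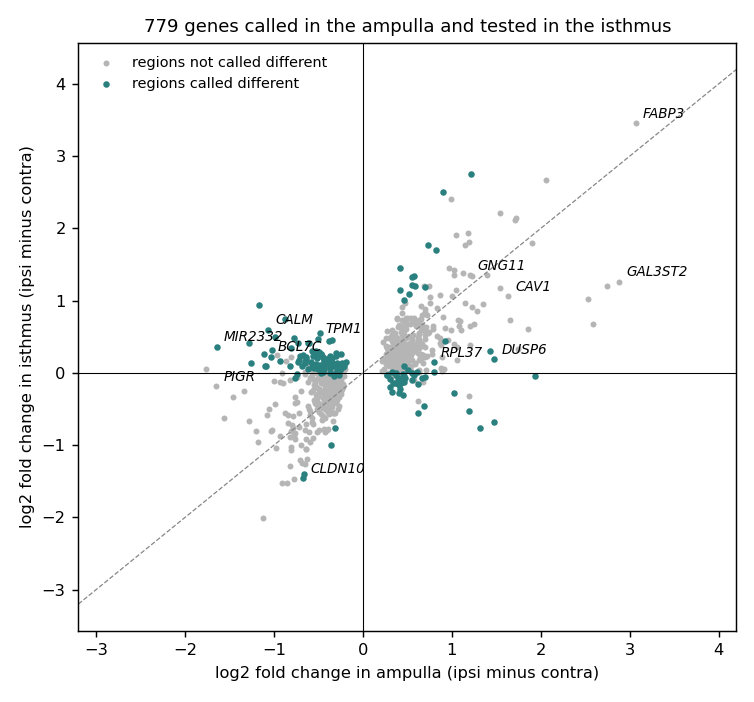
Log2 fold change between the sides in the ampulla (x axis) and in the isthmus (y axis) for the 779 genes called in the ampulla and tested in the isthmus, with the line of equal values dashed. Teal points are genes whose side difference differed between the regions, and they include DUSP6 with 1.48 in the ampulla and 0.19 in the isthmus.

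A test of the difference itself called 994 of 14714 genes (6.76%), and 167 of the 784 ampulla genes tested were among them. DUSP6 rose by 1.48 in the ampulla and had 0.19 in the isthmus, a difference of 1.30 ± 0.27 (adjusted p = 0.0017). RPL37 and FAM3D differed likewise, with 0.80 against 0.15 and 0.93 against 0.44 (adjusted p of the difference 0.031 and 0.045). Genes that fell in the ampulla and did not in the isthmus were BCL7C (-1.04 against 0.23), CALM (-1.07 against 0.60), TCEA2 (-0.74 against -0.02), TPM1 (-0.50 against 0.47) and MIR2332 (-1.65 against 0.36), with adjusted p-values of the difference between 0.00066 and 0.0079. CLDN10, SLC38A2 and ACADSB had the same direction in both regions and a larger size in the isthmus (-1.46, -0.77 and 1.02). For the steroid receptors the ampulla differed from the isthmus: PGR had -0.91 in the isthmus (adjusted p of the difference = 0.033) and ESR1 -0.44 (0.016), against -0.10 and 0.07 in the ampulla. The 3 smallest p-values of the difference were those of MID1, ACP5 and GLUD1, none of them called in the ampulla. Cholesterol genes were called in both regions, with 17 of 22 higher in the isthmus at a median of 0.54, where 16.1% of all tested genes were called higher, and GNG11, CAV1, GJB1, PLA2G4D and FABP3 rose in the isthmus as well (1.35, 1.06, 1.14, 2.12 and 3.45).

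Of the 84 called genes that the naming rule chose, 61 were called with any 1 of the 28 libraries left out. Others lost the call in some of these fits. APOE lost its call without the contralateral library of lactating cow A or non-lactating cow E, or the ipsilateral library of heifer C or that numbered as non-lactating cow D (adjusted p of 0.077, 0.076, 0.052 and 0.053). BMP4 lost it without the contralateral library of non-lactating cow E or the ipsilateral library numbered as non-lactating cow A, B or D (0.059, 0.053, 0.053 and 0.055). SC5D lost it in 5 such fits, ACADVL, ACTG1 and ADCYAP1R1 in 4, MARVELD2 in 3, DRP2 in 2 and C28H10orf10 in 1, with adjusted p-values up to 0.069. The remainder, SLC13A5, C26H10orf90, FIGF, SLC38A2, NDRG1, PALM3, PABPC1L2A, TPBGL, ACTB, JAG1, CCDC85A, CA9 and RET, lost it in 7 to 21 fits, with adjusted p-values up to 0.12. FABP3 and SLC13A5 passed the filter on low counts in 23 of the 28 fits, and FABP3 was called in each of these. Both were at 0 in most contralateral libraries, so they passed this filter mainly through the ipsilateral libraries, where they were high. Their calls in these fits are therefore no independent support for a rise. In the 10 animals of undoubted number, whose libraries are part of the full set, all 84 kept their direction and 24 were called without the block and 56 with it. With the block over all animals PABPC1L2A alone lost its call (adjusted p = 0.081).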

How the data were processed

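The deposited values were counts of reads per gene that the authors made with bcl2fastq 1.8.4, TopHat2 2.0.13 and HTSeq 0.6.1 on the Btau_4.6.1 (bosTau7) genome. Counting was strand specific and strict, so that reads not wholly within 1 gene were left out. The table held 31903 gene rows, of which 26260 had a count, and 5 summary rows were left out here.

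Groups followed the names of the columns. In R 4.3.3, edgeR 4.0.16 was run with TMM normalisation, filterByExpr (minimum count 10) and the quasi-likelihood F test on metabolic group and side. Benjamini-Hochberg adjusted p-values under 0.05 were called. Further fits took each metabolic group alone, the isthmus, and the differences of the side effect between groups and between regions. DESeq2 1.42.0, other normalisations and filters, an animal block and the removal of single libraries were alternatives.

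Same-numbered columns came from the same animal, and the check of these numbers stands with the results. The 4 corrected numbers were chosen after seeing the data. The members and the 38 gene lists were chosen with earlier results of these data known. Of the 610 genes on them, 30 had no row in the table. Genes named were the 15 largest rises and falls (mean CPM of at least 1, no provisional symbol), the 5 smallest p-values in each direction, the called members of each list (at least 2 members of smallest p), PGR, ESR1, OVGP1, FOXJ1, and the 3 smallest p-values of each difference test. Tested on simulated data for the pooled ampulla comparison over 14376 genes, the fit recovered 37.5% of changes of 0.5 and 77.8% of changes of 1 (log2). Of its calls 3.42% were false. The simulated libraries were independent, without group differences, pairing by animal or doubtful numbers, so these shares may not hold for the real libraries. In the main fit p-values measure the spread between libraries within a metabolic group, with both sides of an animal taken as independent. The test between regions without the block likewise takes the libraries of an animal as independent. With the block, p-values measure the spread of the side difference over animals. With no genome of this build used here, no coordinates or sequences are given. Values of some single genes that these rules name are not reported here, and such genes are still part of the counts and medians.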

Additional observations from a re-analysis of the deposited data

Results flagged for a closer look

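Each named gene was examined within each group of 4 or 5 libraries for a library far from its group. Of 750 such checks, made on log2 CPM, 52 flagged a library, where chance flags about 1 in 20. Where all other libraries of a group were at 0, any read led to a flag, as for FABP3, SLC13A5 and GAL3ST2 below. Values are CPM.

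In the contralateral libraries of heifers, heifer E stood high for ACADVL (150), ACTB (536), C1QB (22.9), TCEA2 (33.5) and TPPP3 (2560) and low for MID1 (57.3), SC5D (23.3) and TPM1 (110). Heifer C was high for ACAA2 (100.4) and CA9 (7.94), heifer B low for IFIT1 (6.49) and heifer A low for NCOA1 (143). On the ipsilateral side heifer D was high for KDR (219) and low for DRP2 (1.01) and PECAM1 (2.82), and the library numbered as heifer B was low for ABCA1 (33.2).

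In the contralateral libraries of non-lactating cows, cow A was high for ARF1 (68.6) and low for CAV1 (8.70) and DES (0.64), and cow B was low for C1QB (4.01), CFB (7.21) and HES1 (45.9). Cow D was high, by few reads, for FABP3 (0.22) and SLC13A5 (0.66) where the other libraries were at 0, and low for KRT7 (40.4). Cow E was high for BCL6 (62.9) and low for PLA2G4D (0.49). Ipsilaterally, the library numbered as non-lactating cow B was low for PGA5 (0.79) and PIGR (0.59), the library numbered as lactating cow B low for FIGF (1.19) and GNG11 (53.1), and that of cow E high for APOE (56.8).

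In the contralateral libraries of lactating cows, cow A was high for IGJ (189), the immunoglobulin joining chain, and, where the others were at 0, for FABP3 (2.44) and SLC13A5 (2.44), and low for WIF1 (2.79). Cow B was high for ALDH6A1 (118), GAL3ST2 (1.56), MIR2332 (12.5) and PABPC1L2A (10.3) and low for KDR (98.1). Cow C was low for COL6A3 (2.15), and cow D high for CREB3L2 (116) and low for EPCAM (166) and KIAA1755 (2.37). Ipsilaterally, cow A was high for IGJ (122) and PECAM1 (6.74) and cow D for ACTG1 (1510) and DUSP6 (20.3). The library numbered as non-lactating cow C was high for CCDC85A (4.32) and CCNB1 (6.20) and low for NDRG1 (16.7).

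For 21 named genes the side effect differed between the regions by edgeR's quasi-likelihood test of the difference, given here as ampulla minus isthmus on the log2 scale. It was positive for DUSP6 (1.30), MID1 (0.95), PGR (0.81), CLDN10 (0.79), RPL37 (0.65), ESR1 (0.51), FAM3D (0.50) and SLC38A2 (0.46). It was negative for MIR2332 (-2.01), ACP5 (-1.98), CFB (-1.82), CALM (-1.66), BCL7C (-1.26), GLUD1 (-1.06), TPM1 (-0.97), CA9 (-0.83), CLDN3 (-0.83), ACADVL (-0.74), TCEA2 (-0.71), ACADSB (-0.55) and TPPP3 (-0.49).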

How the results depend on the processing

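The count of 787 genes stayed within 1.5 times under RLE size factors (793), DESeq2 (1066), no filter (541), a filter on the median count (712), robust dispersions (774), and the changed group assignments of the doubtful libraries (752 and 817). With the replicate block it was 1112 with the numbers as written, 1380 with heifer B exchanged for non-lactating cow B and 1595 with all 4 put right. In the 10 animals of undoubted number it was 473 with the block and 95 without, and the count of cholesterol genes, 8 over all animals, was then 4 and 0. An unadjusted p under 0.001 gave 485. With 1 library left out the count ran from 517 to 1120. The side by region count of 994 became 1513 with the block and all numbers put right, an alternative chosen after seeing the data. The block changed the call of 19 of 130 named genes, 18 gained and 1 lost, and changed no other call among them.

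Of the 84 called genes that the naming rule chose, none changed direction under these alternatives, which use the same libraries or a part of them. Of genes not called, IGJ (log2 fold change -0.02) had 0.0013 by DESeq2 and 0.038, 0.037 and 0.032 under the replicate block, and -0.44 to 0.63 with 1 library left out. OVGP1 had 0.00012 with the block and -0.27 to 0.10 with 1 library left out, ACP5 -0.24 to 0.0028 and PGR -0.17 to 0.0013. In the 10 animals MZB1 had -0.029, and TXNL4A 0.068 with the block and 0.039 without. The cause of these changes was not tested. Depth of 3141770 to 6736441 counts limits genes of few reads.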
